A study of Mus musculus with 82 samples.

Results

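At 96 h after aggregation, 1726 regions of the stembryo genome were called for both H3K27me3 and H3K27ac. They were chosen by the peak calls themselves: the 3 wt 96 h H3K27me3 lists were merged into 13558 regions, of which 8675 were present in at least 2 of the 3 lists, and 1726 of these were also overlapped in at least 2 of the 3 wt 96 h H3K27ac lists, that is 19.9%. The 96 h calls of both marks therefore describe the regions and support nothing about them. Stembryos, also called gastruloids, are aggregates of mouse embryonic stem (mES) cells that elongate after a pulse of the Wnt agonist Chiron between 48 h and 72 h, which every library later than 48 h shared. Each library came from a pool of stembryos. The wt cells were the EmbryoMax 129/SVEV line, and up to 96 h stembryos were collected without selection whereas from 108 h only elongating ones were kept. The wt time courses had 1 library a stage, with 9 stages for H3K27ac (48 h to 168 h), 4 for H3K27me3 (72 h, 96 h, 120 h and 144 h) and 8 each for total RNA polymerase II (PolII) and NIPBL (72 h to 168 h). Numbered duplicates were added for H3K27ac at 96 h and 120 h and for H3K27me3 at 96 h, in wt and in lines lacking CTCF sites of the HoxD cluster: the CRISPR/Cas9 clones Del(CBS1) and Del(CBS1-2), the second made from the first, and Del(CBS1-5), a line derived from mouse blastocysts.

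H3K27me3 is laid down by Polycomb repressive complex 2 and accompanies silent developmental genes, whereas H3K27ac marks active promoters and enhancers. A lysine carries only 1 of these modifications at a time, so that a region called for both holds them on different histone tails, alleles or cells. In embryonic stem cells, many CpG-rich promoters of developmental genes are bivalent, with an activating and a repressive modification, and resolve toward either as cells differentiate. NIPBL loads the cohesin ring and is often found at active promoters and enhancers. Whether both marks lay on the same chromosomes or in different cells of the pool cannot be told apart in these data.

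The sequences below show the DNA under the strongest H3K27me3 summit of 6 members that recur in the results, as 200 bases of the plus strand (RefSeq GRCm38.p6, the mm10 coordinates of the lists), with each CpG dinucleotide in capitals. Cbx2 (chr11:119021890-119022089), whose summit lay 972 bp upstream of the nearest annotated start, had both marks at 144 h, the last stage with an H3K27me3 library. Furin (chr7:80403685-80403884), also upstream by 463 bp of the nearest start but inside a longer transcript, had H3K27ac alone at that stage. Nodal (chr10:61418518-61418717), Fgf4 (chr7:144861923-144862122), Wnt3a (chr11:59290385-59290584) and Tfcp2l1 (chr1:118628522-118628721) had H3K27me3 alone at 144 h. Their summits lay 646, 637, 267 and 676 bp downstream of a start, at intronic positions, and the Wnt3a window reaches a coding exon. Furin and Wnt3a are transcribed from the minus strand and the other genes from the plus strand.
Cbx2: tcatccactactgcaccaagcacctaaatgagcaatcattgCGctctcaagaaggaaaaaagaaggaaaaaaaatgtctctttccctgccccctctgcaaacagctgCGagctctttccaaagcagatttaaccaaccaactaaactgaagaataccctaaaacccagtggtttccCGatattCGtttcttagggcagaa
Furin: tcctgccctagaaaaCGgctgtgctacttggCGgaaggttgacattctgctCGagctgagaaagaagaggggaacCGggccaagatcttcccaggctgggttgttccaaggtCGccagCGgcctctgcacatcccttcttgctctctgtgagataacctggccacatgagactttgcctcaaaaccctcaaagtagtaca
Nodal: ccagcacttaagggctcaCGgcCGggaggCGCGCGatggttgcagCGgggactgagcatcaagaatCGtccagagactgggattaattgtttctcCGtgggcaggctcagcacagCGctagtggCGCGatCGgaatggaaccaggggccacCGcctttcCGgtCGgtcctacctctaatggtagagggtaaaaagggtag
Fgf4: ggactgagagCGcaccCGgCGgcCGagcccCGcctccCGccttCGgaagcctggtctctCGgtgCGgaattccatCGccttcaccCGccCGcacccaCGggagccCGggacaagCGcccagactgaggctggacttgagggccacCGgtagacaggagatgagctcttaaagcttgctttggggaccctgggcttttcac
Wnt3a: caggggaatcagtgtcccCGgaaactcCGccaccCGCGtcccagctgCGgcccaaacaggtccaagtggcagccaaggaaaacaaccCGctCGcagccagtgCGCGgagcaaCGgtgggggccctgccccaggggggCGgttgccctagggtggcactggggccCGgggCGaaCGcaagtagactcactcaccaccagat
Tfcp2l1: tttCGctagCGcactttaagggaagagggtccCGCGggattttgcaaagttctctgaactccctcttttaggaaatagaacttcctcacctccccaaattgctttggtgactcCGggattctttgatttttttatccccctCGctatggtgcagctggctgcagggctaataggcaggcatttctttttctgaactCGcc

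These windows held 4 (Cbx2), 6 (Furin), 15 (Nodal), 16 (Fgf4), 14 (Wnt3a) and 7 (Tfcp2l1) CpG dinucleotides. Over all 1726 members the median was 7 CpG in 200 bases at the H3K27me3 summit (quartiles 4 and 13), with a GC content of 57%. Regions with H3K27me3 in at least 2 lists and no H3K27ac call in any of the 3 (H3K27me3-only, 5113 regions) had a median of 4 CpG and 53% GC at the same point. Promoters among the H3K27ac-only regions, which numbered 12411, had a median of 11 CpG at the H3K27ac summit, against 7 at the H3K27me3 summit of the promoter members. At least 10 CpG were found in 39% of the members, against 21.7% of H3K27me3-only regions. The search counted the letters CG, which read the same on both strands, and the values describe composition only.

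Most members were promoters. Of the 1726, 1375 (79.7%) lay within 1 kb of the start of a protein-coding transcript, against 53.3% of H3K27me3-only regions and 31.3% of H3K27ac-only regions (39672 regions in at least 2 H3K27ac lists without H3K27me3 in any). A further 147 members lay inside protein-coding genes and 204 between genes. The median width was 1118 bp, against 840 bp and 723 bp for these 2 classes. The members covered 1363 protein-coding genes of 21829, or 6.24%. Of the 42012 H3K27ac regions seen in at least 2 wt 96 h lists, 3.98% overlapped a member. The members made up 19.9% of the H3K27me3 regions, a smaller set of 8675, so that the 2 shares follow the set sizes. Counted by gene, H3K27ac lay at 12064 of the 21829 promoters, H3K27me3 at 4314 and a member at 1363. The share of H3K27me3 promoters with a member was thus below the share of all promoters with H3K27ac.

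The percentile of fold enrichment was averaged over the 3 wt 96 h lists of a mark, a list without a call counting 0. For H3K27me3 its median was 63.5 in members, against 39.6 in H3K27me3-only regions. For H3K27ac it was 52.3 in promoter members, against 82.9 in H3K27ac-only promoters. All 3 H3K27me3 lists had a call at 1432 members and at 3408 of the 5113 H3K27me3-only regions. All 3 H3K27ac lists had one at 972 members. The measure thus mixes missing calls with weak ones, in lists that chose the regions. The strongest summits of both marks lay a median of 451 bp apart (quartiles 200 bp and 732 bp), and the H3K27ac summit fell inside the H3K27me3 region in 997 members (57.8%). In 1404 members both marks covered shared bases in at least 2 of the 3 pairs of lists, and in 1687 in at least 1 pair.

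The 6 lists that chose the members were uneven. The unnumbered 96 h H3K27ac list, from the time course, overlapped 98.7% of the members with 42641 regions covering 31.3 Mb, while the numbered lists overlapped 84.8% and 72.8% with 59284 and 50882 regions covering 31.6 and 25.5 Mb. Among the 1836 regions that missed the rule with H3K27ac in exactly 1 list, 1723 (93.8%) had it in the unnumbered one. In all 6 lists 789 regions were present, and without the unnumbered H3K27ac list 995 regions met the rule. The time-course and numbered libraries are therefore given apart wherever H3K27ac is described.

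Weak calls of one mark or the other were seen at the members with the lowest score. The score is the lower of the mean percentiles of the 2 marks over their 3 lists. The lowest scores among members were 0.518 at a region on chromosome 15 that lay 4181 bp from Hoxc8, 0.551 at Ccnd1 (cyclin D1), 0.555 at Mcf2l, 0.583 at Hoxb6 and 0.702 at Sfi1. Just outside, with H3K27ac in exactly 1 list, the highest scores were 33.2 at Dgat2, 33.1 at Prdm9, 33.1 at Tbc1d2, 32.8 at Slc7a1 and 32.5 at Icosl. A list without a call lowers the mean, so that a region with H3K27ac in exactly 1 list has a capped score. The highest scores outside lay close to this cap and cannot be compared in strength with those of the members. The weakest members scored below them, since the rule counts lists and not strength.

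The strongest members included both wide and narrow regions. The 10 promoter members with the highest score were led by the predicted gene Gm10800 (99.8) and held Gm21738 (91.2), another predicted gene. Both predicted genes had PolII and NIPBL called at all 8 stages. Among the 10 were also Cfap77 (96.1), a cilium-associated gene, Tmem44 (94.6), a transmembrane protein gene, and Itpripl2 (91.6), with widths above 1 kb. The other 5 were ribosomal protein promoters, namely Rps24 (95.1), Nkiras1 with Rpl15 (94.9), Rps3 (93.1), Rpl13 (93) and Rpl23 (91.5). At Cfap77 the H3K27me3 fold enrichment, the height of the fragment pileup divided by its local background and comparable within a list only, was 6.80 (72 h), 9.37, 7.07 and 9.76 in the 3 wt 96 h lists, 8.66 (120 h) and 8.93 (144 h). Its H3K27ac fold enrichment was at least 6.63 in all 13 wt lists, and PolII was called at 72 h alone. Cfap77 thus carried both marks in every wt list, with PolII in 1 of 8.

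Ribosomal protein genes made up a narrow subset of the members. Of 37 listed genes, 15 (40.5%) had a member at the promoter, against 6.24% of all protein-coding genes. Their regions were narrow, with a median of 297 bp (251 to 481 bp), against 1118 bp over all members. All 15 had PolII at each of the 8 stages and H3K27ac at each of the 9 stages, and H3K27me3 was called in 12 (72 h), 15 (120 h) and 11 (144 h). At Rps24 the H3K27me3 fold enrichment was 8.75 at 72 h, 12.1, 6.91 and 4.77 in the 96 h lists and 11.9 at 120 h, with no call at 144 h, beside PolII values of 11.2 to 14.5. Among all members, 174 were narrower than 500 bp, and 28.7% of these had PolII at all 8 stages, against 11% of the wider ones. No input control was used by the peak caller. Narrow width and constant PolII moved with these calls, and their part in the H3K27me3 calls was not tested.

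A small set was called in unrelated assays. Of the members, 17 were called in all 42 wt lists of PolII, pSer2 PolII (the elongating form), NIPBL, RAD21, CTCF and CDX2 (11 of them away from promoters), and 32 in all 3 lists of CDX2, a posterior homeodomain factor whose shortest list held 147 regions. Gm21738 was one of the 17. The 32 regions had a median H3K27me3 percentile of 99.7, and 28 had PolII at every stage. Leaving these 32 out left 1694 members and moved no difference between classes given below by more than 1.2 percentage points.

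**Figure D1:**
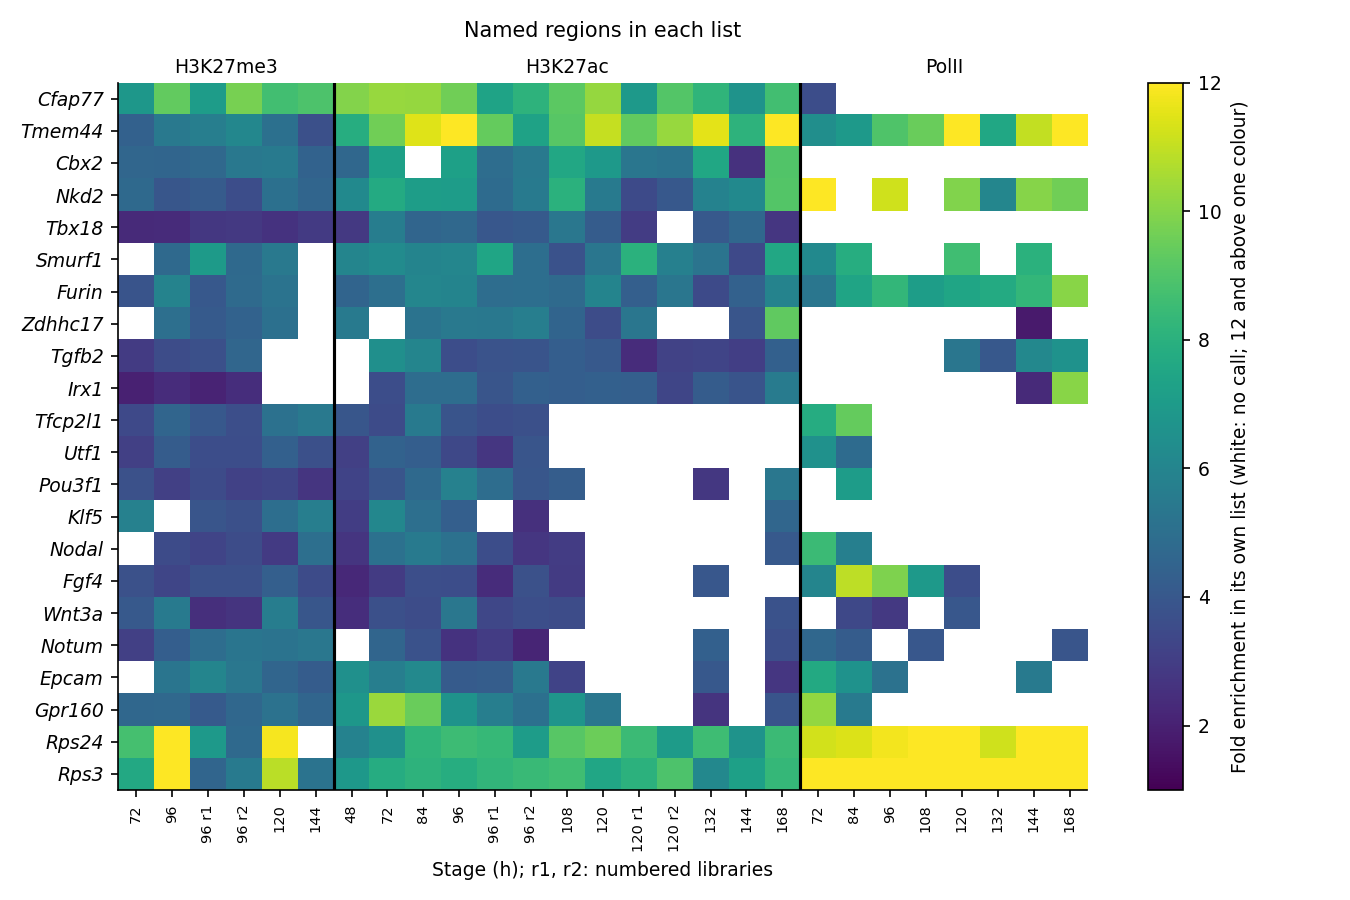
Fold enrichment of 22 named members (rows) in each wt list of H3K27me3, H3K27ac and PolII (columns, by stage in h; r1 and r2 are the numbered libraries), where white means no call and colours can be compared within a column only. H3K27ac and PolII are absent from most later columns at Tfcp2l1, Utf1, Nodal and Fgf4, while H3K27me3 stays, and Rps24 and Rps3 carry PolII throughout.

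Genes of early development were spread through the members. Among genes associated with pluripotency 6 of 22 (27.3%) had a member at the promoter, against 6.24% of all protein-coding genes. These were Klf2, Klf5, Tfcp2l1, Utf1, Fgf5 and Pou3f1. H3K27ac was called at all 6 in the lists of 48 h, 72 h and 84 h, and at 3 (108 h), 1 (120 h), 2 (132 h), 2 (144 h) and 4 (168 h). Over all 1726 members H3K27ac was called in 83.4%, 91.8% and 89.2% at the first 3 of these stages, and in 80.2%, 68%, 74.7%, 61.5% and 77.3% from 108 h on. H3K27me3 was called at 5 of them at 72 h and at all 6 at 120 h and 144 h. PolII was called at 4 (72 h) and 5 (84 h), then at 1 (96 h), none at 108 h or 132 h and 1 at each of 120 h, 144 h and 168 h, beside shares of all members between 22.5% and 59.8%. At 144 h H3K27me3 was thus called at all 6, H3K27ac at 2 and PolII at 1, and at 168 h H3K27ac was called at more of them again.

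Tfcp2l1, a transcription factor of the naive state, had H3K27ac fold enrichments of 3.96 (48 h), 3.51 (72 h), 5.51 (84 h) and 3.86, 3.58 and 3.67 (96 h), and no call in any of the 7 later lists. Its PolII call was 7.82 at 72 h and 9.42 at 84 h, and was absent from then on. H3K27me3 was called there in every wt list, among them those of 72 h (3.44) and 144 h (5.44), whose values cannot be compared with each other. Utf1, a chromatin factor of undifferentiated cells, followed the same order, with H3K27ac in all 6 lists up to 96 h and none after, PolII at 72 h (6.55) and 84 h (4.86), and H3K27me3 in every wt list. Pou3f1, a POU factor of the epiblast and neural cells, had no H3K27ac call in any of the 3 lists of 120 h and had one again at 132 h (2.79) and 168 h (5.36). Fgf5, a ligand of the primed epiblast, differed from these in keeping both marks at 120 h and 144 h in the time-course lists, with no H3K27ac call in either numbered 120 h list.

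Signalling ligands of the early embryo were among the members with H3K27me3 alone at 144 h. Nodal, a TGF-beta family ligand needed for the primitive streak, had H3K27ac in all 7 lists up to 108 h (2.71 to 5.54) and then in none until 168 h (4.05). It had PolII at 72 h (8.52) and 84 h (5.77) only. H3K27me3 was not called there at 72 h and was called at 144 h (5.02). Fgf4, a ligand made by pluripotent cells and the streak, kept PolII longer, from 72 h (6.01) over 84 h (10.9), 96 h (9.87) and 108 h (6.95) to 120 h (3.61), and had H3K27me3 at all 4 stages. Wnt3a, a ligand of the tail bud, had PolII calls at 84 h (3.40), 96 h (2.81) and 120 h (3.99) at the stronger of its 2 members. The weaker one had PolII calls at 72 h (2.68) and 84 h (2.97). Notum, a secreted inhibitor of Wnt ligands, had no H3K27ac call at 48 h, when the Wnt pulse began, and at the stronger of its 2 members one at 72 h (4.60), 84 h (3.76) and in each list at 96 h.

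Of the BMP, Nodal and TGF-beta list, 8 of 29 annotated genes had a member (27.6%), against 6.24% of all protein-coding genes. These were Bmp6, Bmp7, Gdf1, Gdf6, Nodal, Tgfb1, Tgfb2 and Nog. H3K27ac was called at 7 of these 8 at 72 h, 4 at 144 h and 5 at 168 h, beside 91.8%, 61.5% and 77.3% of all members. H3K27me3 was called at 5 (72 h) and 6 (144 h), beside 62.9% and 76.1% of all members. In these calls the members of the list were thus close to all members. Tgfb2 differed from Nodal, with H3K27me3 at 72 h (2.92) and at 96 h only, H3K27ac in every list from 72 h, and PolII from 120 h (5.32) to 168 h (6.61). Fgf ligands had 4 members of 22 (18.2%, Fgf3, Fgf4, Fgf5 and Fgf15), Wnt ligands 2 of 19 (10.5%, Wnt3a and Wnt6), and Wnt targets and feedback genes 5 of 19 (26.3%, Nkd2, Notum, Ccnd1, Sfrp1 and Sfrp2). Nkd2, an inhibitor inside the Wnt pathway, kept H3K27me3 and H3K27ac in every wt list and PolII at 6 of 8 stages.

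Retinoic acid genes had 5 members of 17 (29.4%), against 6.24% of all protein-coding genes. They were the receptors Rarg and Rxra, the synthesizing enzyme Aldh1a2, the degrading enzyme Cyp26a1 and the binding protein Crabp1. At Cyp26a1 PolII was called at every stage (3.53 to 8.10), and H3K27ac was called in all lists from 84 h. Its H3K27me3 fold enrichment lay between 1.82 and 3.21, and the call was missing in 1 of the 3 wt 96 h lists. Notch and segmentation clock genes had 2 members of 20 (10%, Lfng and Ripply2). Eph and ephrin genes had 3 of 22 (13.6%, Ephb1, Efna2 and Efnb3), all 3 with H3K27ac at 144 h, beside 61.5% of all members.

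Transcription factor families were read against all genes. Over all protein-coding genes, 4314 promoters had H3K27me3 in at least 2 wt 96 h lists and 1363 (6.24%) had a member. H3K27me3 was called in at least 2 wt 96 h lists at the promoters of 22 of 39 Hox genes, 17 of 26 Forkhead genes and 23 of 26 genes of the Lim, Pax and sine oculis families, while members numbered 4 (10.3%), 2 (7.69%) and 4 (15.4%). Sox genes had 1 of 18 (5.56%, Sox18), T-box genes 1 of 14 (7.14%, Tbx18), Nkx and Irx genes 4 of 20 (20%, Nkx2-5, Nkx2-9, Irx1 and Irx5), and Gata genes and Evx and Cdx genes none. The shares of the Sox, T-box and Forkhead genes were close to that of all genes. Imprinted genes had 7 of 39 annotated (17.9%, among them Igf2, Plagl1, Grb10 and Phlda2). Subunits of Polycomb and Trithorax complexes had 4 of 34 (11.8%, Phf19, Bmi1, Pcgf5 and Cbx2). Cbx2, the Polycomb protein that reads H3K27me3, carried H3K27me3 in every wt list (4.44 to 5.55) and H3K27ac in all wt lists but that of 84 h, without PolII at any stage.

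Within the 4 Hox clusters, which are opened in order during these stages, 9 members were found (2 in HoxA, 4 in HoxB, 2 in HoxC and 1 in HoxD), against 68 H3K27me3-only regions. Genome-wide these classes held 1726 and 5113 regions, and 19.9% of H3K27me3 regions in at least 2 lists were members. Relative to H3K27me3-only regions, members were thus fewer in the clusters than genome-wide. The promoter members were at Hoxa7, Hoxb6, Hoxc8 and Hoxd8, all in the middle of their clusters. At Hoxd8 (chr2:74702992-74704474) H3K27me3 was 1.85 at 72 h, 2.06, 2.70 and 2.37 in the 96 h lists, 1.95 at 120 h and not called at 144 h. H3K27ac at this region was called at 84 h, in 2 of the 3 lists at 96 h (2.77 and 2.59), at 120 h and at 168 h. In the time-course H3K27me3 lists, the number of these 4 promoter members with a call was 1 (72 h), 1 (96 h), 3 (120 h) and 0 (144 h). Over all members the shares were 62.9%, 90.6%, 93% and 76.1%, the 96 h list having helped to choose them. These promoter members were weak calls, with scores from 0.583 at Hoxb6 to 10.9 at Hoxd8.

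The other H3K27me3 libraries asked whether the repressive mark had been there before and stayed on. At 72 h, 62.9% of the members had H3K27me3, against 57.3% of H3K27me3-only regions. At 120 h the shares were 93% and 82%, and at 144 h 76.1% and 60.6%. The mean difference was 10.7 ± 4.97 percentage points (SD, 3 libraries), higher in 3 of 3, and the exact two-sided sign-flip permutation test gave p = 0.25, the smallest that 3 libraries allow. At promoters alone the difference was 2.96 points and at 72 h it ran the other way (63.6% of members against 64.1% of H3K27me3-only promoters). It was 3.39 points without the second numbered 96 h H3K27me3 list, 0.445 with 3 of 3 lists and −0.643 with −log10 q of at least 5. Marking at all 4 stages was seen in 882 members.

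H3K27ac was followed in the time-course libraries that the rule did not use. It overlapped 83.4% of the members at 48 h, 91.8% (72 h), 89.2% (84 h), 80.2% (108 h), 68% (120 h), 74.7% (132 h), 61.5% (144 h) and 77.3% (168 h). For H3K27ac-only regions the same shares were 51.1%, 55.1%, 59%, 59.6%, 51%, 50.6%, 41.7% and 52.3%. The members were higher in 8 of 8 libraries, by 25.7 ± 6.79 percentage points on average (SD; exact two-sided sign-flip permutation test, p = 0.00781, the smallest that 8 libraries allow). H3K27ac was thus called at most of these regions at 48 h, when the pulse began.

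This excess did not hold for promoters or in the numbered libraries. When promoter regions alone were compared, the members were lower than H3K27ac-only promoters by 8.96 points on average (exact permutation p = 0.0156). Promoter members had H3K27ac in 93% at 72 h and 63.5% at 144 h, against 92.3% and 81.8% of H3K27ac-only promoters. In the 2 numbered wt 120 h libraries, 42.7% and 34.7% of the members had H3K27ac, against 64.4% and 61.7% of H3K27ac-only regions, with lists of 53644 and 51590 regions covering 25.6 and 22.6 Mb, beside 32590 regions and 22.6 Mb in the unnumbered list. The comparison with H3K27ac-only regions therefore had opposite directions at 120 h in the time-course and the numbered libraries. The source of this difference was not tested.

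**Figure D2:**
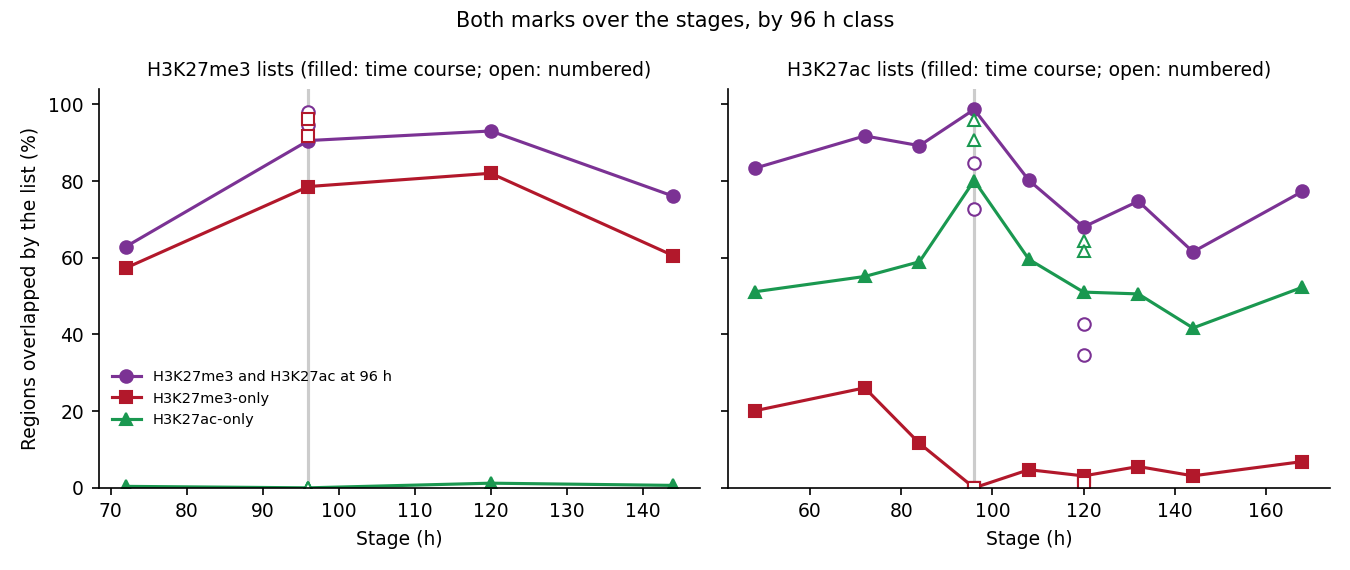
Percent of regions overlapped by each wt H3K27me3 list (left) and H3K27ac list (right) against stage in h, for regions with both marks at 96 h (circles), H3K27me3-only (squares) and H3K27ac-only regions (triangles); filled symbols are time-course libraries, open symbols numbered ones, and the grey line marks the stage that chose the classes. The open circles at 120 h (42.7% and 34.7%) lie below the filled one (68%) and below the triangles.

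Against hours, the share of members with H3K27ac gave a negative relation that did not pass the threshold after adjustment. Over the 8 time-course stages Spearman's rho was −0.76 (exact permutation p = 0.0368, adjusted over 3 relations 0.0551) and Pearson's r was −0.68 (exact permutation p = 0.0656, adjusted 0.0984), and r was −0.94 without 48 h and 168 h. The share also followed the length of the list, with rho 0.93 over the same 8 stages. With all lists cut to equal length rho was −0.12. At H3K27me3-only regions H3K27ac was likewise called more often early, in 20.1% (48 h) and 26.1% (72 h), against 3.13% (144 h).

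The time-course lists of both marks sort the members by stage. At 72 h 994 had both marks, 590 H3K27ac alone, 92 H3K27me3 alone and 50 neither. At 120 h 1075 had both, 531 H3K27me3 alone, 99 H3K27ac alone and 21 neither. At 144 h 772 had both, 541 H3K27me3 alone, 290 H3K27ac alone and 123 neither. Both marks were called at all 4 of 72 h, 96 h, 120 h and 144 h in 430 members. H3K27ac alone was thus the more frequent single call at 72 h, and H3K27me3 alone at 120 h and 144 h. The H3K27ac lists held 47221 (72 h), 32590 (120 h) and 24002 (144 h) regions, and the H3K27me3 lists 7732, 10931 and 7680. These counts were not adjusted for list length, and its part in them was not tested.

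**Figure D3:**
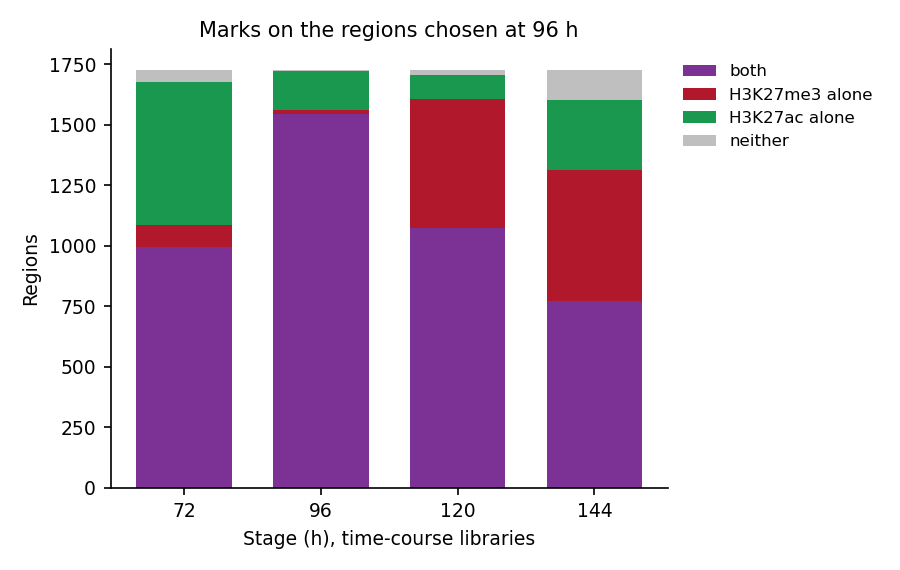
Number of members (bars, 1726 in each) with both marks, H3K27me3 alone, H3K27ac alone or neither in the time-course libraries at 72 h, 96 h, 120 h and 144 h, where 96 h is the stage that chose them. H3K27ac alone shrinks after 72 h (590 regions) and H3K27me3 alone grows to 541 regions at 144 h. The counts are not adjusted for the differing lengths of the lists.

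Named members show this sorting gene by gene. Those with H3K27ac alone at 144 h included, beside Rps24, Smurf1, a ubiquitin ligase of BMP signalling, Furin, a protease that matures growth factors, Ccdc88c, Kcnk5, Snrpb, Col18a1, Zdhhc17, Atp13a3 and Plekhh1. At Furin H3K27me3 was called at 72 h (3.84), in all 96 h lists (5.90, 4.02 and 4.82) and at 120 h (5.20) and not at 144 h, while H3K27ac was called in all 13 wt lists and PolII at all 8 stages (5.31 to 10.0). Those with H3K27me3 alone at 144 h included Epcam, an epithelial adhesion molecule, Gpr160, Rasd1, Stac2, Fbxo17, Gcnt2, Rcan3, Prrg4, Ass1 and St8sia3. At 168 h, a stage without an H3K27me3 library, 268 of the 541 (49.5%) had an H3K27ac call. Among them were 7 of the 10 genes just named, such as Rcan3 (5.90), Prrg4 (5.03) and Epcam (2.72). The 168 h H3K27ac list held 36784 regions, against 24002 at 144 h. Whether the mark returned or was below the threshold at 144 h was not tested. At Gpr160 PolII was called at 72 h (10.2) and 84 h (5.52) and not from 96 h on. At Epcam PolII was called at 72 h (7.70), 84 h (6.61) and 96 h (5.15), and once more at 144 h (5.52).

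Total PolII was found at many more members than H3K27me3-only regions. The rule did not use PolII, but it split these 2 classes by H3K27ac, a mark of active promoters, so that they are not independent of activity. PolII overlapped 59.8% of the members at 72 h, 40.4% (84 h), 27.2% (96 h), 22.5% (108 h), 38.2% (120 h), 24.8% (132 h), 50.1% (144 h) and 47.6% (168 h). Regions with H3K27ac in exactly 1 list lay lower, from 4.47% (108 h) to 28.3% (72 h). For H3K27me3-only regions the shares were 7.88%, 2.99%, 1.04%, 1.02%, 2.43%, 1.53%, 4.28% and 4.24%. The difference was 35.6 ± 11.2 percentage points (SD), higher in 8 of 8 libraries (exact two-sided sign-flip permutation test, p = 0.00781, the smallest possible). In windows of 500 bp on each side of the H3K27me3 summit, which removes the difference in width, it was 33.4 points, and at promoters alone 35.6 points.

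Promoter members nevertheless lay below ordinary active promoters. PolII was called at 61.8% of them at 72 h, 23% at 108 h and 51.7% at 144 h, against 87.5%, 77.1% and 86% of H3K27ac-only promoters. The share dropped by more between 72 h and 108 h at the members than at H3K27ac-only promoters, a difference between 2 single libraries that has no replicate check. No trend with hours passed the test (rho −0.05, exact permutation p = 0.935, adjusted 0.935, and r −0.02, exact permutation p = 0.954, adjusted 0.954, with r 0.28 without 72 h and 168 h). The share followed the length of the PolII list closely over the 8 stages (rho 0.98), from 20672 regions at 72 h to 12304 at 108 h.

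PolII was called at no stage in 433 members and at all 8 in 220. Of the 1033 members with PolII at 72 h, 240 had none from 96 h on, as at Tfcp2l1, Utf1, Nodal and Gpr160, and 339 had none at 108 h but again at 144 h. A group of 129 members had PolII at 144 h and 168 h and none at 72 h, among them Irx1, a homeobox gene, and Tgfb2. The 433 members without PolII kept H3K27me3 more often at 144 h than the 220 with PolII throughout (79% against 69.1%) and had H3K27ac less often (41.6% against 84.5%), a description with no test.

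NIPBL was also more frequent at the members than at H3K27me3-only regions, the same 2 classes split by H3K27ac. NIPBL overlapped 15.6% of the members (72 h), 9.04% (84 h), 35.3% (96 h), 21.3% (108 h), 17.2% (120 h), 28.3% (132 h), 53.8% (144 h) and 47% (168 h). Regions with H3K27ac in exactly 1 list lay lower, from 2.61% (84 h) to 30.4% (144 h). For H3K27me3-only regions the shares were 3.01%, 1.41%, 8.68%, 4.09%, 2.01%, 3.83%, 11.1% and 9.09%. The difference was 23 ± 12.3 percentage points (SD), higher in 8 of 8 libraries (exact two-sided sign-flip permutation test, p = 0.00781, the smallest possible). The NIPBL lists ranged from 4888 to 40490 regions, and when all were cut to the shortest the difference was 5.54 points (exact permutation p = 0.00781).

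The NIPBL share against hours gave a positive relation (rho 0.79, exact permutation p = 0.0279, adjusted 0.0551, and r 0.77, exact permutation p = 0.0268, adjusted 0.0804, with r 0.67 without 72 h and 168 h) that missed the threshold after adjustment. It followed the length of the list (rho 0.98), and with lists of equal length rho was −0.45. Of the 928 members with NIPBL at 144 h, 627 also had PolII at that stage. At promoters NIPBL was called in 54.8% of members at 144 h, against 83.9% of H3K27ac-only promoters and 13.6% of H3K27me3-only promoters.

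**Figure D4:**
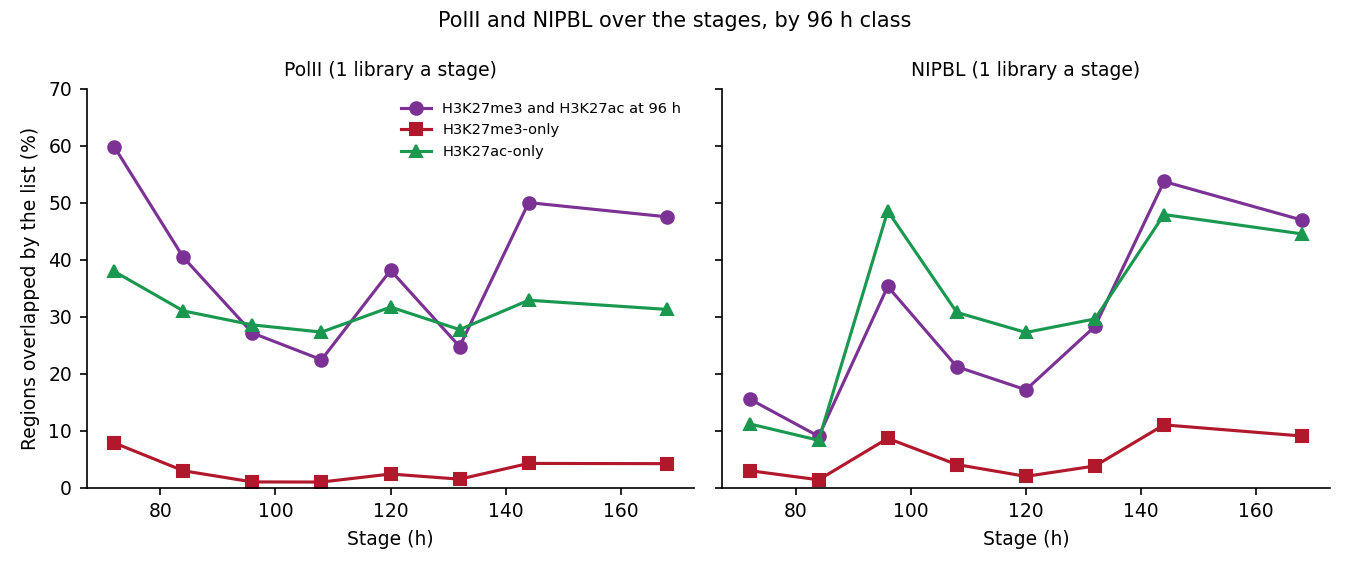
Percent of regions overlapped by the PolII list (left) and the NIPBL list (right) against stage in h, 1 wt library a stage, for regions with both marks at 96 h (circles), H3K27me3-only (squares) and H3K27ac-only regions (triangles). The circles lie above the squares at every stage, from 22.5% to 59.8% for PolII and from 9.04% to 53.8% for NIPBL.

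PolII, which did not define the classes at 144 h, differed by more percentage points between them at 144 h than at 72 h. It was called at 71.7% of the 290 members with H3K27ac alone at 144 h, 60% of the 772 with both marks, 28.5% of the 541 with H3K27me3 alone and 31.7% of the 123 with neither. At 72 h the same classes had PolII at 63.8%, 64.4%, 54.2% and 47.2%. For NIPBL the shares at 144 h were 72.4%, 62.7%, 34.6% and 38.2%, against 12.8%, 21.6%, 10.2% and 8.13% at 72 h, when the list held 6652 regions, against 40490 at 144 h. These values describe single libraries, with no test.

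**Figure D5:**
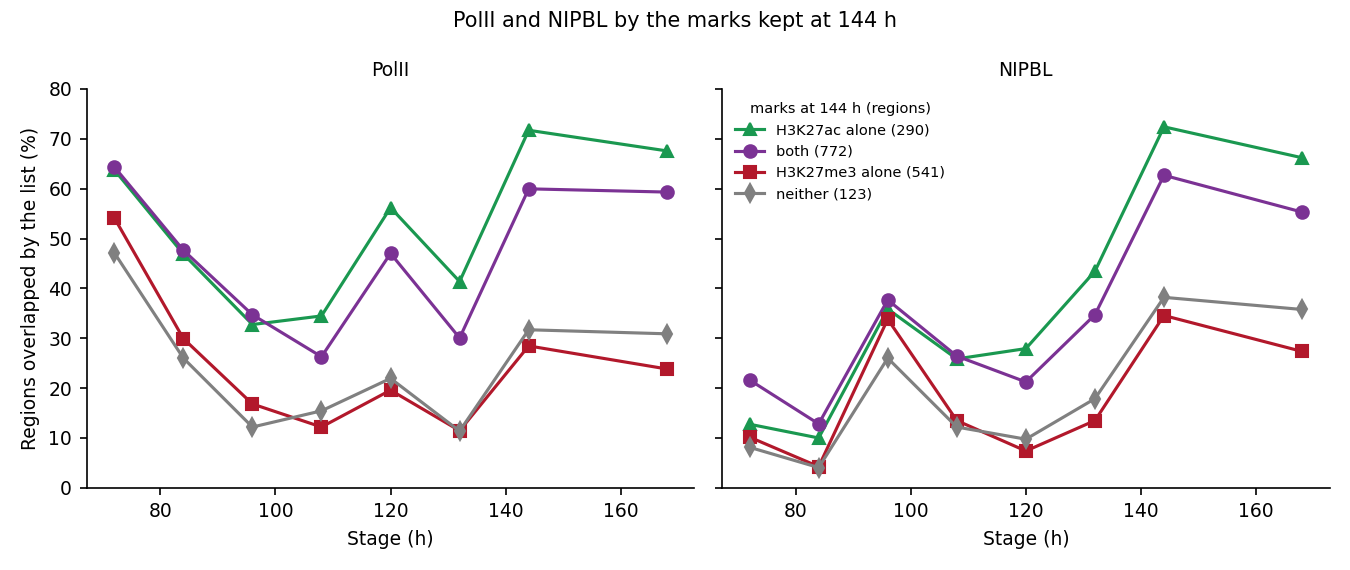
Percent of members overlapped by PolII (left) and NIPBL (right) against stage in h, by the marks called at 144 h (H3K27ac alone, both, H3K27me3 alone, neither, with the number of regions). At 144 h PolII is at 71.7% of the regions left with H3K27ac alone and 28.5% of those left with H3K27me3 alone, while at 72 h the classes lie between 47.2% and 64.4%.

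The classes at 144 h were also visible in the numbered H3K27ac libraries at 120 h, which no class used. H3K27ac was called there in 73.1% and 65.5% of the members later left with H3K27ac alone, 54.5% and 42.6% of those with both marks, 26.8% and 18.7% of those with neither, and 13.1% and 10.5% of those left with H3K27me3 alone. The order was the same in the mutant libraries, for example 84.5% and 78.3% in Del(CBS1) for H3K27ac alone, 42.3% and 32.5% for neither and 25.3% and 20.7% for H3K27me3 alone. The same order thus appeared in separate libraries at an earlier stage.

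In mutant stembryos the members are described without a test. At 96 h H3K27ac overlapped 58.7% and 64.8% of the members in Del(CBS1) and 75.6% and 82.7% in Del(CBS1-2), against 84.8% and 72.8% in the numbered wt libraries, which took part in the choice. At 120 h the shares were 56.5% and 49.2% in Del(CBS1) and 51.4% and 57.2% in Del(CBS1-2), against 42.7% and 34.7% in the numbered and 68% in the unnumbered wt library. H3K27me3 in Del(CBS1-5) at 96 h overlapped 69.4% and 87.4% of the members, with lists of 7212 and 10844 regions, and 57.9% and 80.5% of H3K27me3-only regions. The mutant H3K27ac values at 120 h lay between those of the wt libraries, and the 2 Del(CBS1-5) libraries differed from each other by more than the members differed from H3K27me3-only regions in either.

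The labelled cell mixture was checked against promoter H3K27ac at 96 h. H3K27ac was called in at least 2 wt lists at 8 of 10 caudal epiblast and neuromesodermal markers, 6 of 8 of paraxial mesoderm, 4 of 6 neural, 3 of 6 endoderm, 2 of 8 cardiac and endothelial and 3 of 8 naive pluripotency markers. It was called at 0 of 5 hepatocyte markers. Some markers were members themselves, namely Wnt3a, Epcam, Klf2 and Tfcp2l1. In a mixture of cell types, fewer cells of a type and a weaker mark in each cell cannot be told apart.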

How the data were processed

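Reads were processed by the authors: per the labels and the methods of the study they were trimmed with cutadapt 1.16, aligned by Bowtie2 2.3.4.1 (mm10) and cleaned by SAMtools 1.8, and MACS2 2.1.1.20160309 called peaks in each library with no input. The deposited lists give for each peak the fold enrichment (a ratio over local background), a score, −log10 values of p and q and the summit offset. These were compared within a list only. Peaks sharing a region were merged, on 21 chromosomes, and 71 of 80 lists were used, leaving out mutant CTCF and RAD21 lists. For pSer2 PolII at 144 h the authors joined 3 replicates into 1 list.

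Overlap needed 1 base. All peaks lay inside the GRCm38 chromosomes (21 of 21), and genes came from GENCODE vM21. Read depth is not stated in the lists. The background under the peaks was worked out from both the fold enrichment and the p-value of each deposited peak, and its first percentile per list, a measure of depth, was 2.85 to 4.53 fragments per base for H3K27ac and 1.45 to 2.99 for H3K27me3. A region missing from a list was below its threshold, not shown to lack the mark.

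Classes were compared by the percent of regions overlapped, taken within each library, with exact two-sided sign-flip permutation tests over libraries. Stages were related to shares by exact permutation of Spearman's rho and Pearson's r, with Benjamini-Hochberg adjustment over 3 relations. The wt time courses are single pools, and per the study's methods numbered libraries are biological duplicates, some of them from different cultures. The labels do not say which. The tests took 1 library a stage, so that p-values measure the spread between libraries of different stages. Stage and library cannot be told apart in this spread, and no stage was replicated in a test. Regions are not replicates. The members, gene lists and tests were chosen with earlier results of these data known. Named members were the 10 promoter members with the highest score, up to 10 in each class at 144 h, and every Hox, Evx and Cdx gene. Up to 5 per gene list and the 5 lowest-scoring members were added. So were the 5 highest-scoring regions with H3K27ac in exactly 1 list. Alternatives were overlap of 200 bases, −log10 q of 5, 3 of 3 lists, shared bases, each library or stage left out, starts extended by 2.5 kb, windows of 500 bp on each side of the summit, promoters alone and lists of equal length. After the data were seen, 2 more were added: regions of at least 500 bp, and leaving out regions in all 3 CDX2 lists. Overlap and test functions were tested on simulated data. Python 3.11.15, numpy 2.4.6, pandas 2.3.3 and scipy 1.17.1 were used. The result of 1 further marker list is not reported here.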

Additional observations from a re-analysis of the deposited data

How the results depend on the processing

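The number of regions with both marks was 644 with −log10 q of at least 5 in every list, 789 with 3 of 3 lists, and 995 to 1538 when 1 of the 6 lists was left out, the lowest without the unnumbered H3K27ac list. With starts extended by 2.5 kb, 83.7% of members lay at a promoter. The difference in H3K27ac share between members and H3K27ac-only regions reversed at promoters alone (−8.96 points, exact permutation p = 0.0156) and was 17.9 to 29.5 points when a library or stage was left out. The differences in PolII and NIPBL share kept their direction and stayed past the threshold under all 22 alternatives each, but that of NIPBL was 5.54 points with lists of equal length. The H3K27me3 difference, which no setting took past the threshold, was −0.643 points with −log10 q of at least 5. Against hours, rho with lists of equal length was −0.45 for NIPBL and −0.12 for H3K27ac, and rho for NIPBL was 0.69 to 0.82 and for H3K27ac −0.86 to −0.64 when a library or stage was left out. Both passed the threshold after adjustment in a single setting, without the unnumbered H3K27ac list (adjusted exact permutation p = 0.0419, rho 0.79 for NIPBL and −0.81 for H3K27ac). The cause was not tested. No paired analysis was possible because the genotype groups, which share replicate numbers, entered no test. The tests between classes of regions used differences within each library. Depth limits every absence, since a weak region falls out of a shallow list.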

Other observations

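Other assays covered the members to different degrees. Elongating PolII (pSer2) was called at 22.2% of the members at 72 h, 3.94% (84 h), 17.8% (96 h), 10.4% (120 h) and 6.08% in the joined 144 h list, against 2.60%, 0.352%, 2.39%, 1.74% and 0.880% of H3K27me3-only regions. The 84 h list held 3987 regions and the 96 h list 24177. CTCF overlapped 18.2% of the members in the 72 h list and 23.6% in the 168 h list, against 12.3% and 17% of H3K27me3-only regions. RAD21, a cohesin subunit, was called at 8.69% to 42.1% of the members over 16 wt lists, with 31.1%, 13.9% and 14.4% in the 3 lists at 96 h, so that libraries of a stage differed by more than 2-fold. CDX2 was called at 1.97% (72 h), 2.55% (96 h) and 3.19% (120 h) of the members, against 0.0907%, 5.88% and 2.17% of H3K27ac-only regions. For H3K27me3-only regions the shares were 0.176%, 0.352% and 0.939%. Members with CDX2 numbered 34, 44 and 55 in these lists, and 32 regions were present in every list. These 32 are the set described above under unrelated assays. The higher share of members in the 72 h list thus rested almost wholly on that set. Members numbered 6 on chromosome X. H3K27me3 was called in both Del(CBS1-5) lists at 1160 of the 1726 members.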
